A study of Mus musculus with 10 samples.

Results

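Nephron progenitors that had been isolated from mouse embryos at E11.5 and then kept in culture for 19 days were set against nephron progenitors isolated at birth (P0). The comparison is defined by the sample titles and takes 2 arrays of 19-day culture and 2 arrays of P0 progenitors, 4 of the 10 arrays of the series. Both groups come from Six2-GFP transgenic mice on a C57BL6J/ICR background and were purified by flow cytometry for the GFP that reports Six2. The culture was in conditioned medium, and P0 progenitors were not cultured. The other 6 arrays, used for the estimate of the spread and for orientation, are E11.5 progenitors before culture, the same kind of culture at 8 days, and GFP-negative cells at P0 (P0 non-progenitors), 2 arrays each. Nothing in the labels tells if the cultures were sorted again for GFP before RNA was isolated, or which cells conditioned the medium. It is also unstated whether the 2 replicates of a group came from separate litters or cultures, so p-values measure only the spread between these samples, which may be technical.

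Nephron progenitors form a cap of mesenchyme around each tip of the branching ureteric bud, and the transcription factor Six2 keeps them undifferentiated. Signals from the bud make some of them condense into pretubular aggregates and renal vesicles, which become the epithelium of glomerulus and tubule, while the rest self-renew. In the mouse the pool is used up within days after birth. Cells cultured from the start of kidney development to 19 days have therefore been outside the embryo for longer than the whole period of kidney development before birth that separates E11.5 from P0.

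RNA was amplified, labelled with Cy3 and hybridised to 1-colour Agilent arrays, so the number of arrays, and not a read depth, limits the precision. A value below is the log2 processed intensity of a probe minus the 75th percentile of its array (scaled log2 signal), and a change is the difference of 2 group means of it. Between 60.4% and 69.8% of the spots of an array were well above background and none was saturated. Arrays of 19-day culture and of P0 progenitors differed by a root mean square of 1.54 log2 units over the genes tested, against 0.969 between the 2 arrays of 19-day culture and 0.833 between the 2 arrays of P0 progenitors. Both P0 arrays were on slide 1 and both 19-day arrays on slide 2. Slide and group can thus be told apart only through the 8-day culture, which had 1 array on each slide. Any difference between those 2 arrays enters each change fitted with slide as a block and can enlarge or shrink it. Passing or failing in that fit therefore does not tell if slide had a part. In RNA from whole cell populations, fewer cells of a type and less RNA per cell cannot be told apart.

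Of 26251 genes tested, 1503 were higher (5.73%) and 1821 were lower (6.94%) in 19-day culture than in P0 progenitors at an adjusted p under 0.05 in limma, together 3324 genes (12.7%). The values of the 2 groups did not overlap in any of them. This is no separate support, since a pass already requires a difference that is large against the spread. The median log2 change of all genes tested was 0.11. Counts in the gene lists below are to be read beside the shares of 5.73% higher and 6.94% lower. Of the genes that passed, 281 were not well above background on either P0 array and 214 on neither 19-day array. Where this held for 1 group alone and the bound kept the direction, the fold is given as a lower bound. Other genes that passed had a probe above background on at least 1 array of each group. Of them 548 were over 4-fold higher and 498 over 4-fold lower, with 142 over 16-fold higher and 127 over 16-fold lower. Some of these folds rest in part on signal below background, since 1 array and any probe of the gene sufficed. Counts were lower when 1 array was left out: 712 higher and 870 lower without replicate 1 of the culture, 915 and 1394 without its replicate 2, 448 and 492 without replicate 1 and 459 and 508 without replicate 2 of the P0 progenitors. With slide as a block, 368 genes were higher and 357 lower, and 582 of these had also passed without the block. None of the 3324 genes had the opposite sign in that fit. The fits that left out 1 array could not change a sign, since the groups did not overlap.

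**Figure D1:**
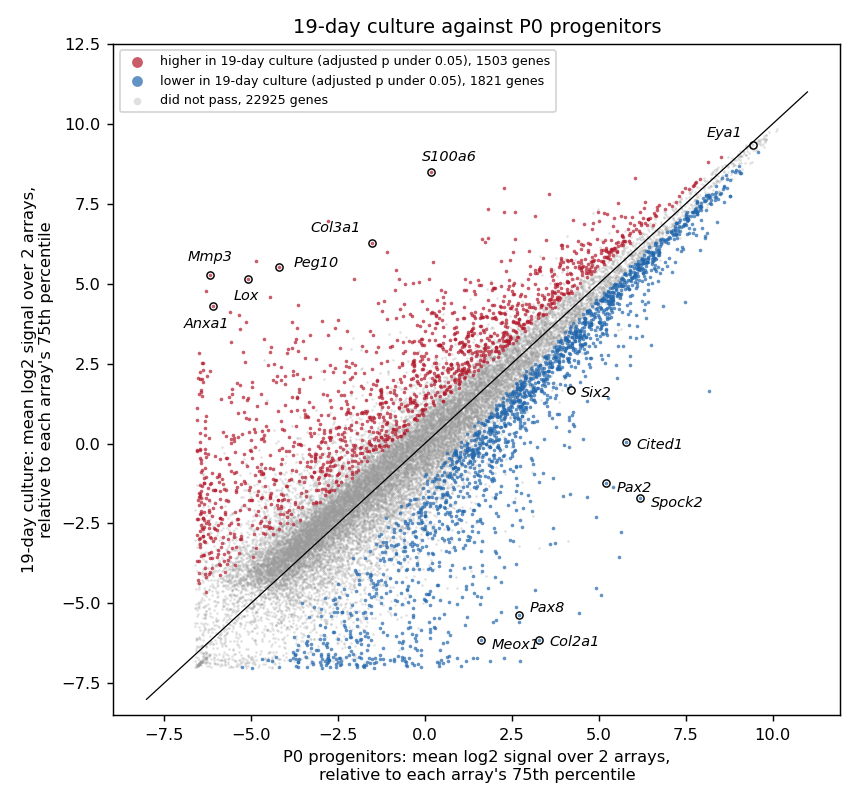
Mean scaled log2 signal of each gene tested in 19-day culture (vertical axis, 2 arrays) and in P0 progenitors (horizontal axis, 2 arrays), with equal levels on the diagonal, red for genes higher and blue for genes lower in culture at an adjusted p under 0.05, and grey for the others (2 genes with no mean in 1 group are not drawn). The 1503 red and 1821 blue points lie away from the diagonal over the whole range of levels, and the circled genes are described in the text.

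Progenitor genes differed in how far they were lower in culture, and not all of them were. Of 25 genes of nephron progenitors measured, 12 fell, 2 rose and 11 did not pass, with a median log2 change of -2.51 against 0.11 over all genes, of which 6.94% fell and 5.73% rose. The count of falls was 12 without replicate 1 and 15 without replicate 2 of the culture, 10 without replicate 1 and 10 without replicate 2 of the P0 progenitors, and 7 with slide as a block. Six2 itself read 1.06 and 2.31 in 19-day culture, against 4.27 and 4.11 in P0 progenitors. E11.5 progenitors read 4.70 and 4.82 and 8-day culture 5.21 and 4.60. Six2 was lower on both 19-day arrays than on each of those 6, yet the change did not pass (log2 change -2.51 ± 0.71 SE, adjusted p = 0.0596). It passed under 3 of 15 alternatives (adjusted p between 0.0112 and 0.503 over them), those with normexp background correction, the mean of probes and the 4 arrays alone. All 3 of its probes went the same way, and P0 non-progenitors were lower still, at -2.26 and -4.55.

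Cited1 is a transcriptional co-regulator that marks the least committed cap cells. It read 0.60 and -0.48 in 19-day culture, against 6.03 and 5.53 in P0 progenitors (log2 change -5.72 ± 0.53 SE, adjusted p = 0.00125). Sall1, a zinc-finger factor needed for outgrowth of the bud and for progenitor upkeep, read -2.90 and -0.28 in 19-day culture, against 4.12 and 4.26 in P0 progenitors (log2 change -5.78 ± 0.72 SE, adjusted p = 0.00382). Pax2, a paired-box factor of all early nephron cells, read -1.25 and -1.22 in 19-day culture, against 5.20 and 5.20 in P0 progenitors (log2 change -6.43 ± 0.23 SE, adjusted p = 6.36e-05), with its 3 probes in 1 direction. In these 3 genes every 19-day array was more than 3 log2 units below every P0 array. Pax2 was already at -1.41 and -1.04 in 8-day culture, against 4.56 and 4.20 in E11.5 progenitors.

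Wt1, a zinc-finger factor of progenitors and podocytes, fell by 1.79 on the log2 scale and kept a level well above background, at 4.02 and 4.05 in 19-day culture, against 5.76 and 5.90 in P0 progenitors (adjusted p = 0.00484). Meox1, a homeobox gene of the cap, was not well above background on either 19-day array and was at least 78.9-fold lower, with means of -6.14 in 19-day culture and 1.62 in P0 progenitors (adjusted p = 0.000223). Spock2, a secreted proteoglycan, fell by 7.92 on the log2 scale and Foxc2, a forkhead factor, by 6.32 (adjusted p = 0.00135 and 0.00403). Other members did not pass: Osr1, an early marker of intermediate mesoderm, had a log2 change of -1.66 (adjusted p = 0.173), Gas1 and Ncam1, surface proteins of the cap, had 0.12 and 0.08 (adjusted p = 0.879 and 0.941), and Eya1, a partner of Six2, read between 9.23 and 9.74 on all 10 arrays, P0 non-progenitors included, so that its only probe separated no group.

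Of the 2 members that rose, Meox2, a homeobox gene of somites and limb muscle, read 0.38 and 0.58 in 19-day culture, against -2.53 and -4.05 in P0 progenitors (log2 change 3.77 ± 0.49 SE, adjusted p = 0.00439). Its level in 19-day culture was close to that of E11.5 progenitors, which read 0.46 and 0.56.

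Cited1, Sall1, Pax2, Wt1, Meox1, Spock2, Foxc2 and Meox2 kept their calls in each of the 4 fits that left out 1 array. Cited1, Pax2, Meox1 and Spock2 also passed with slide as a block. Meox2 was above background on a single P0 array.

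**Figure D2:**
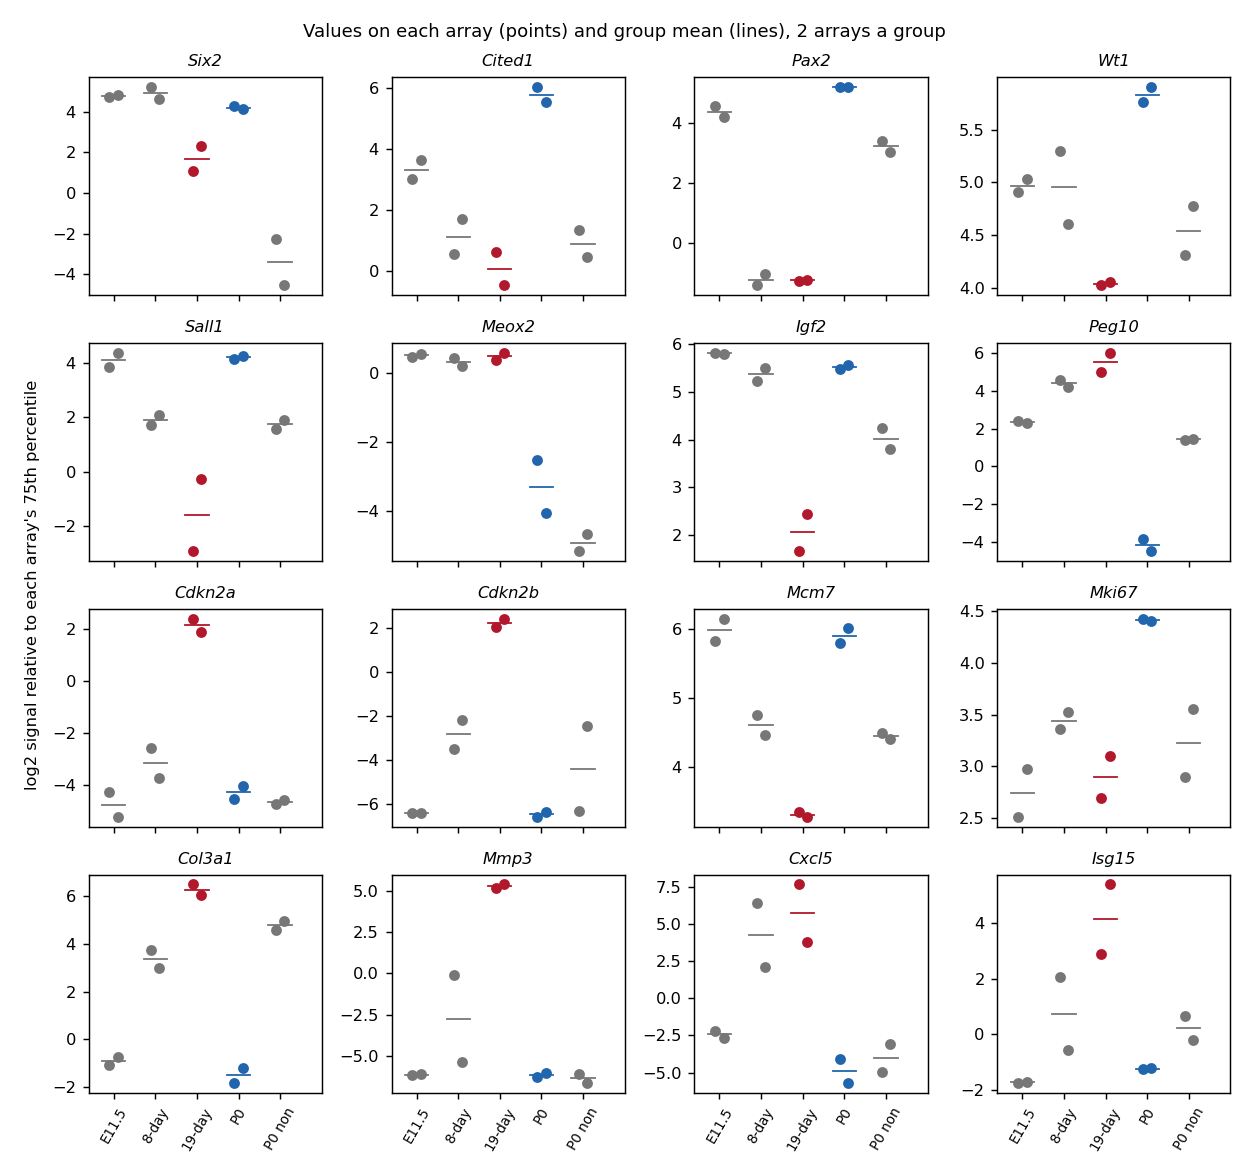
Scaled log2 signal of 16 genes on each array (points) with the group mean (lines) in E11.5 progenitors, 8-day culture, 19-day culture (red), P0 progenitors (blue) and P0 non-progenitors, 2 arrays a group. Six2, Cited1, Pax2, Igf2 and Mcm7 are lower on both red than on both blue points, and Peg10, Cdkn2a, Col3a1 and Mmp3 are higher.

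Several secreted signals and a receptor of this niche were lower in culture as well. Gdnf, the ligand that draws the ureteric bud into the mesenchyme, was not well above background on either 19-day array and was at least 23.9-fold lower, with means of -6.97 in 19-day culture and -0.10 in P0 progenitors (adjusted p = 0.0115). Its co-receptor Gfra1 was at least 56.5-fold lower (means of -5.68 in 19-day culture and 1.14 in P0 progenitors, adjusted p = 0.000475). Both genes were thus measured on the P0 side alone.

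Bmp7 and Fgf20, growth factors that progenitors need to survive, were lower by at least 23.8-fold and at least 36.4-fold (adjusted p = 0.000418 and 0.00932). Their means were -5.83 and -6.88 in 19-day culture, against -0.11 and 0.51 in P0 progenitors. Igf2, an imprinted fetal growth factor, read 1.67 and 2.45 in 19-day culture, against 5.49 and 5.56 in P0 progenitors (log2 change -3.46 ± 0.26 SE, adjusted p = 0.000651). E11.5 progenitors read 5.82 and 5.80 and 8-day culture 5.23 and 5.51, near the level at P0, so the 19-day arrays stood below all 6. Gfra1, Bmp7 and Igf2 kept their calls in each of the 4 fits that left out 1 array, and the other 2 had adjusted p of up to 0.0762 (Gdnf). Gdnf, Gfra1, Bmp7, Fgf20 and Igf2 passed with slide as a block.

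The posterior Hox genes, which give the tail end of the body its positional identity and include the Hox11 group required for the kidney, changed in part. Of 13 measured, 5 fell, 1 rose and 7 did not pass (median log2 change -0.81). Among all genes tested 6.94% fell and 5.73% rose, and the single rise is near that share. Hoxd12 read -2.31 and -2.71 in 19-day culture, against 0.79 and 0.94 in P0 progenitors (log2 change -3.38 ± 0.47 SE, adjusted p = 0.00567), and Hoxc9 (-3.29), Hoxb9 (-3.15), Hoxc10 (-2.41) and Hoxa10 (-0.81) fell too. Hoxd13, the most posterior gene of its cluster, was not well above background on either P0 array and was at least 6.68-fold higher in 19-day culture (means of -1.54 in 19-day culture and -4.43 in P0 progenitors, adjusted p = 0.0065). Hoxa11 and Hoxd11 had log2 changes of -0.35 and -0.48 and did not pass (adjusted p = 0.507 and 0.524), and both were well above background on all 4 arrays. With slide as a block no gene of this list passed, without either P0 array 2 fell, and without replicate 2 of the culture 3 fell.

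Genes of the next steps of nephron formation were lower in culture or did not pass. In the list of the pretubular aggregate and renal vesicle, 7 of 18 fell, none rose and 11 did not pass (median log2 change -1.38, and -1.28 with genes below background on 1 side at their bound). Pax8, a paired-box factor of induced progenitors, read -6.87 and -3.87 in 19-day culture, against 2.51 and 2.91 in P0 progenitors (log2 change -8.08 ± 1.12 SE, adjusted p = 0.0055). Cdh4, the cadherin of the forming vesicle, read -4.52 and -3.78 in 19-day culture, against 1.37 and 1.39 in P0 progenitors (log2 change -5.53 ± 0.52 SE, adjusted p = 0.00132). In both genes the 2 groups were separated by more than 4 log2 units.

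Wnt4, the signal that starts the conversion to epithelium, read 3.26 and 2.25 in 19-day culture, against 5.04 and 5.12 in P0 progenitors, and it fell (adjusted p = 0.0424), although it was higher in 19-day than in 8-day culture, at -0.23 and 1.15. Jag1, a Notch ligand of the vesicle, fell by 2.36 and Bmp2, a growth factor made there, by 3.91 on the log2 scale (adjusted p = 0.0205 and 0.0373). Lhx1, a LIM factor of the vesicle, had a log2 change of -0.52 and did not pass (adjusted p = 0.201). The count of falls was 2 without replicate 1 and 4 without replicate 2 of the culture, 2 without replicate 1 and 2 without replicate 2 of the P0 progenitors, and 1 with slide as a block. Without replicate 2 of the P0 progenitors 1 member rose. Pax8 and Cdh4 kept their calls in each of the 4 fits that left out 1 array, and the other 3 had adjusted p of up to 0.175 (Wnt4). None of these passed with slide as a block. The leading probe of Cdh4 was above background on a single culture array, and another of its probes was on all 4. Pax8 was above background on a single culture array.

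Markers of mature segments were also read on the P0 arrays. In the proximal tubule list 5 of 17 fell, in the list of the loop of Henle and distal tubule 5 of 15, in that of the ureteric bud and collecting duct 5 of 15, and in that of the podocyte 1 of 14. The first 2 lists held no rise, and the lists of collecting duct and podocyte held 1 each. Among all genes tested 6.94% fell and 5.73% rose, and the podocyte counts were near these shares. Falls in the proximal tubule list numbered 3 without replicate 1 and 3 without replicate 2 of the culture, 2 without replicate 1 and 3 without replicate 2 of the P0 progenitors, and 1 with slide as a block; the list's median log2 change was -1.87, and -1.17 with genes below background on 1 side at their bound. Umod, the urinary protein of the thick ascending limb, was at least 16.7-fold lower in 19-day culture (means of -6.18 in 19-day culture and -0.62 in P0 progenitors), and Slc12a1, the salt transporter of that segment, at least 19.2-fold (means of -6.32 in 19-day culture and -0.41 in P0 progenitors; adjusted p = 0.00164 and 0.000916). P0 non-progenitors read 4.03 and 4.55 for Umod and 2.94 and 3.13 for Slc12a1, more than 2.5 log2 units above P0 progenitors. Spp2, a secreted phosphoprotein of the proximal tubule, was at least 37.5-fold lower (means of -5.34 in 19-day culture and 0.55 in P0 progenitors, adjusted p = 0.000491), and so was Scnn1g, a chain of the sodium channel of the collecting duct, at least 10.5-fold (means of -6.60 in 19-day culture and -1.28 in P0 progenitors, adjusted p = 0.000519).

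Members with a measured level on both sides were Aqp3, a water channel of the collecting duct, which fell by 2.61, Slc27a2, a fatty acid transporter of the proximal tubule, by 2.19, and Fxyd2, a regulator of the sodium pump in tubules, by 4.36 on the log2 scale (adjusted p = 0.00463, 0.0102 and 0.0221). The rises were Emx2, a homeobox gene of the bud that is also active in early nephrons, by 3.97, and Synpo, an actin-binding protein of podocytes, by 3.41 (adjusted p = 0.0443 and 0.00759). The podocyte gene that passed as lower, Podxl, had a leading probe below background in both groups, and no fold is given for it.

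The mean scaled log2 signal over the list of the loop and distal tubule was -3.96 and -4.36 in 19-day culture, against -1.74 and -2.30 in P0 progenitors, and the mean of the P0 non-progenitor arrays was 0.80. In the erythroid list 2 of 7 genes passed, both lower in culture: the adult globins Hba-a1, which fell by 4.32 on the log2 scale (adjusted p = 0.00895), and Hbb-b2, at least 28.1-fold lower (means of -6.07 in 19-day culture and 0.14 in P0 progenitors, adjusted p = 0.000719). Adult globin probes can share signal between gene copies. In P0 non-progenitors Hba-a1 read 9.27 and 8.99 and Hbb-b2 read 5.29 and 5.48. The mean over the erythroid list was -3.80 and -3.92 in 19-day culture, against -2.38 and -2.13 in P0 progenitors. The part of other cells in the results was not tested. Without replicate 2 of the culture, 1 gene of the loop and distal tubule list rose. Umod, Slc12a1, Spp2, Scnn1g, Aqp3 and Hbb-b2 kept their calls in each of the 4 fits that left out 1 array, and the other 5 had adjusted p of up to 0.174 (Emx2). Umod, Slc12a1, Spp2, Scnn1g, Hba-a1 and Hbb-b2 passed with slide as a block. Emx2 was above background on a single P0 array.

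Epithelial genes that passed were lower in culture, and most mesenchymal genes that passed were higher. Of 17 genes of epithelial junctions and keratins, 5 fell, none rose and 12 did not pass (median log2 change -1.47). Cdh16, the kidney cadherin, read -2.82 and -2.88 in 19-day culture, against 0.46 and 0.10 in P0 progenitors (log2 change -3.13 ± 0.27 SE, adjusted p = 0.000928), and Epcam, a surface adhesion protein of epithelia, fell by 4.80 on the log2 scale (adjusted p = 0.0365). Cldn6, a claudin of embryonic epithelia, fell by 5.05 (adjusted p = 0.0352). Falls in the epithelial list numbered 3 without replicate 1 and 4 without replicate 2 of the culture, 2 without replicate 1 and 4 without replicate 2 of the P0 progenitors, and 3 with slide as a block. Krt18, a simple-epithelial keratin, had a log2 change of -2.05 and did not pass (adjusted p = 0.138). It passed under 2 of 15 alternatives (adjusted p between 0.0137 and 0.972 over them), slide as a block being one, where its log2 change was -4.94 (adjusted p = 0.0137). Of 12 genes of the mesenchymal state, 7 rose, 1 fell and 4 did not pass (median log2 change 2.09, and 1.87 with genes below background on 1 side at their bound).

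Twist1, a basic helix-loop-helix factor of mesenchyme, read 1.79 and 1.73 in 19-day culture, against -3.96 and -5.96 in P0 progenitors (log2 change 6.72 ± 0.78 SE, adjusted p = 0.00286). Fn1, fibronectin, read 7.43 and 7.03 in 19-day culture, against 2.30 and 2.28 in P0 progenitors (log2 change 4.94 ± 0.43 SE, adjusted p = 0.000929), and Vim, the intermediate filament vimentin, 5.20 and 5.12 in 19-day culture, against 3.06 and 2.89 in P0 progenitors (log2 change 2.18 ± 0.21 SE, adjusted p = 0.00138). Both arrays of culture were higher in each. Against this direction, Cdh2, the N-cadherin of progenitors and mesenchyme, fell by 2.17 on the log2 scale (adjusted p = 0.00121). Prrx1, a homeobox gene of limb and facial mesenchyme, rose by 4.18 and Zeb2, a repressor of E-cadherin, by 2.51 (adjusted p = 0.0335 and 0.0287). Rises in the mesenchymal list numbered 3 without replicate 1 and 3 without replicate 2 of the culture, 3 without replicate 1 and 4 without replicate 2 of the P0 progenitors, and 5 with slide as a block. Cdh16, Twist1, Fn1, Vim and Cdh2 kept their calls in each of the 4 fits that left out 1 array, and the other 4 had adjusted p of up to 0.178 (Cldn6). Cdh16, Twist1, Fn1, Vim, Zeb2 and Cdh2 passed with slide as a block. Twist1 was above background on a single P0 array. Epcam and Cldn6 were above background on a single culture array.

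**Figure D3:**
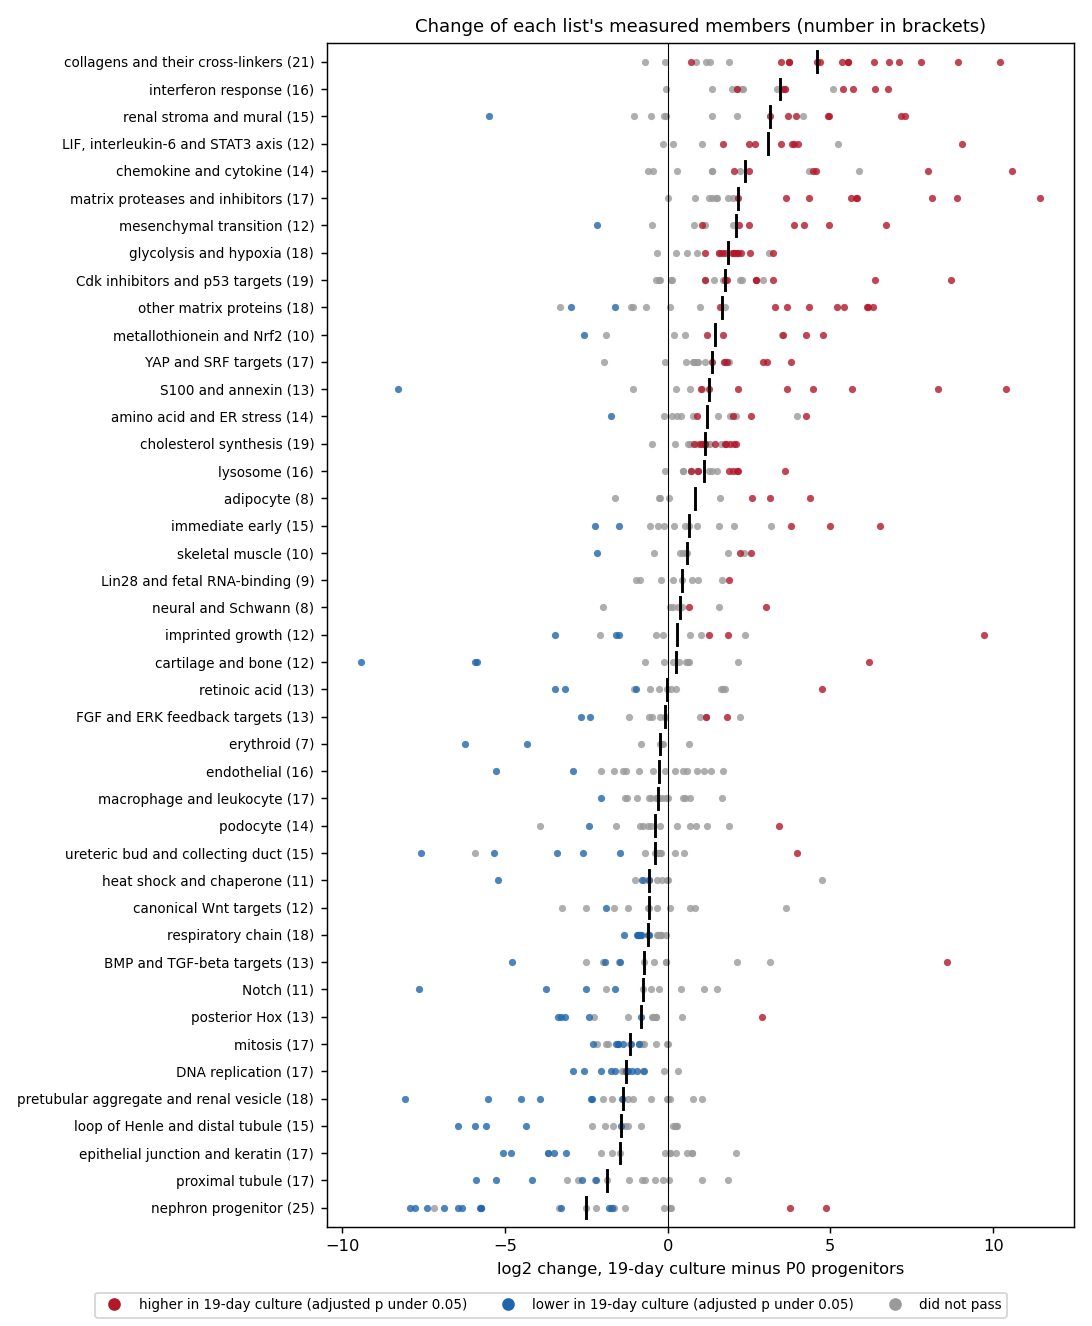
Fitted log2 change of every measured member of 43 gene lists, 19-day culture minus P0 progenitors, with red and blue points for members that passed (higher and lower in culture), grey points for the others and a black bar at the list's median. Lists of collagens, interferon response and stroma lie furthest to the right and the nephron progenitor list furthest to the left. Fitted values of genes not above background in 1 group are shown as fitted.

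The collagens had the highest median of the 43 lists. Of 21 collagens and cross-linking enzymes, 15 rose, none fell and 6 did not pass (median log2 change 4.58). Col3a1, a fibrillar collagen of loose connective tissue, read 6.50 and 6.06 in 19-day culture, against -1.83 and -1.21 in P0 progenitors (log2 change 7.80 ± 0.33 SE, adjusted p = 8.26e-05). Col1a1, the main fibrillar collagen of scar and bone, read 6.36 and 5.64 in 19-day culture, against -1.50 and -0.69 in P0 progenitors (log2 change 7.10 ± 0.36 SE, adjusted p = 0.000178). Lox, the oxidase that cross-links collagen and elastin, read 5.53 and 4.78 in 19-day culture, against -4.19 and -5.95 in P0 progenitors (log2 change 10.22 ± 0.73 SE, adjusted p = 0.000504). In all 3 the groups were more than 6 log2 units apart.

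Col6a3, a chain of the beaded-filament collagen, was at least 111-fold higher (means of 2.52 in 19-day culture and -6.41 in P0 progenitors, adjusted p = 0.000196), and its partner chain Col6a1 rose by 6.79 on the log2 scale (adjusted p = 0.00156). The basement membrane chain Col4a1 did not pass (log2 change 0.87, adjusted p = 0.148). At 8 days of culture Col3a1 read 3.72 and 3.01 and Col1a1 2.10 and 1.90, between the P0 and the 19-day arrays. Rises in the collagen list numbered 12 without replicate 1 and 14 without replicate 2 of the culture, 12 without replicate 1 and 12 without replicate 2 of the P0 progenitors, and 9 with slide as a block. Col3a1, Col1a1, Lox, Col6a3 and Col6a1 kept their calls in each of the 4 fits that left out 1 array. Col3a1, Col1a1, Lox and Col6a3 also passed with slide as a block. Lox was above background on a single P0 array.

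Other matrix proteins rose in 9 of 18 cases and fell in 2 (median log2 change 1.68). Thbs1, a matricellular glycoprotein that activates TGF-beta, read 5.68 and 4.44 in 19-day culture, against 0.18 and -0.49 in P0 progenitors (log2 change 5.22 ± 0.48 SE, adjusted p = 0.00124), and Bgn, a small proteoglycan, 5.91 and 5.44 in 19-day culture, against -0.23 and 0.73 in P0 progenitors (log2 change 5.43 ± 0.34 SE, adjusted p = 0.00032). Postn, a matricellular protein of fibroblasts, was at least 17.4-fold higher (means of -0.16 in 19-day culture and -6.31 in P0 progenitors, adjusted p = 0.000736). Fbn1, a fibrillin of microfibrils, had a log2 change of 1.76 and did not pass (adjusted p = 0.0588). The 2 that fell were Vcan, a large proteoglycan of embryonic mesenchyme, and Has2, which makes hyaluronan, by 1.62 and 2.96 on the log2 scale (adjusted p = 0.0159 and 0.0321). Thbs1, Bgn and Postn kept their calls in each of the 4 fits that left out 1 array, and the other 2 had adjusted p of up to 0.176 (Has2). Thbs1, Bgn and Postn also passed with slide as a block.

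Markers of renal stroma and mural cells were read beside the matrix genes. Of 15, 7 rose, 1 fell and 7 did not pass (median log2 change 3.14, and 2.15 with genes below background on 1 side at their bound). The mean scaled log2 signal over the list was 1.03 and 0.85 in 19-day culture, against -1.43 and -1.44 in P0 progenitors. Acta2, smooth-muscle actin, read 4.88 and 2.90 in 19-day culture, against -0.52 and -1.63 in P0 progenitors (log2 change 4.96 ± 0.64 SE, adjusted p = 0.00437), and Pdgfrb, a growth factor receptor of pericytes, 3.64 and 4.77 in 19-day culture, against -1.48 and 0.06 in P0 progenitors (log2 change 4.92 ± 0.85 SE, adjusted p = 0.0113). Foxd1, the factor that defines cortical stroma, went the other way: it read -2.0 and -4.87 in 19-day culture, against 2.62 and 1.49 in P0 progenitors (log2 change -5.49 ± 1.25 SE, adjusted p = 0.0292), and it was lower on the culture arrays than on every array of E11.5 progenitors (3.83 and 3.20).

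Pdgfra and Fbln5, genes of interstitial fibroblasts, were at least 69.4-fold and 72.5-fold higher (means of 1.84 and 1.90 in 19-day culture, against -5.32 and -5.40 in P0 progenitors; adjusted p = 0.00107 and 0.01). Rgs5, a marker of pericytes, and Aldh1a2, the retinoic acid synthase of stroma, did not pass (log2 changes 2.15 and -0.04, adjusted p = 0.257 and 0.931). No stromal gene was below background on both 19-day arrays, and Pdgfra, Tbx18, Lum and Fbln5 were so on both P0 arrays. The part of stromal cells in the matrix result was not tested. Rises in the stromal list numbered 6 without replicate 1 and 5 without replicate 2 of the culture, 3 without replicate 1 and 5 without replicate 2 of the P0 progenitors, and 2 with slide as a block. Acta2 and Pdgfra kept their calls in each of the 4 fits that left out 1 array, and the other 3 had adjusted p of up to 0.157 (Foxd1). Pdgfrb, Foxd1 and Pdgfra passed with slide as a block. Foxd1 was above background on a single culture array.

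No marker of blood or vessel cells passed as higher. Of 16 endothelial genes 2 fell and 14 did not pass, and of 17 leukocyte genes 1 fell and 16 did not pass. Over all genes tested 5.73% rose and 6.94% fell, so the absence of rises in lists of this size says little. The mean scaled log2 signal of the leukocyte list was -2.89 and -2.80 in 19-day culture, against -2.56 and -2.58 in P0 progenitors. By their leading probes, 10 of the 17 leukocyte genes were well above background on both 19-day arrays, and 10 on both P0 arrays. Lyz2, C1qc, Spi1, S100a8 and S100a9, genes of myeloid cells, were not well above background on any of the 4 arrays. The one leukocyte gene that passed, S100a9, was thus below background in both groups, and no fold is given for it.

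In the endothelial list Cldn5, a tight-junction protein of vessels, fell by 2.91 on the log2 scale (adjusted p = 0.00326), and Flt4, a receptor of lymphatic vessels, was at least 8.53-fold lower (means of -6.86 in 19-day culture and -1.58 in P0 progenitors, adjusted p = 0.0164). Of 12 genes of cartilage and bone 3 fell and 1 rose. Col2a1, the collagen of cartilage, was the largest bound among the falls at 247-fold or more (means of -6.15 in 19-day culture and 3.27 in P0 progenitors, adjusted p = 7.57e-05). Spp1, the secreted phosphoprotein osteopontin of bone and injured tubule, rose by 6.18 on the log2 scale (adjusted p = 0.0151), at 1.55 and 2.28 in 19-day culture, against -4.89 and -3.65 in P0 progenitors. Cldn5 and Col2a1 kept their calls in each of the 4 fits that left out 1 array, and the other 2 had adjusted p of up to 0.0976 (Spp1). Cldn5, Flt4, Col2a1 and Spp1 passed with slide as a block. Spp1 was above background on a single P0 array.

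Lists of muscle, fat and nerve moved in a few members, where 5.73% of all genes tested rose and 6.94% fell. Of 10 skeletal muscle genes, Des, a muscle intermediate filament, and Acta1, skeletal actin, rose by 2.56 and 2.21 on the log2 scale, and Tnnt3, a troponin, fell by 2.18 (adjusted p = 0.0146, 0.0393 and 0.0133). Myod1, the master gene of muscle, did not pass (log2 change 0.60, adjusted p = 0.0892). Of 8 adipocyte genes 3 rose: Fabp4, a fatty acid carrier, by 4.37, Lpl, a lipase, by 3.15 and Pparg, the master factor of fat cells, by 2.59 (adjusted p = 0.0492, 0.0097 and 0.0143), with 0 to 2 rises when 1 array was left out. The mean over the adipocyte list was -1.19 and -0.84 in 19-day culture, against -2.03 and -2.41 in P0 progenitors. Of 8 neural genes 2 rose, Tubb3, a neuronal tubulin, by 3.01 and Elavl4, an RNA-binding protein of neurons of whose 2 probes 1 went the other way, by 0.65 (adjusted p = 0.0287 and 0.0251). No call named here held in each of the 4 fits that left out 1 array, and the 8 genes named here had adjusted p of up to 0.196 (Fabp4). Tubb3 passed with slide as a block.

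Several matrix-degrading enzymes rose, and so did inhibitors of them. Of 17 proteases and inhibitors, 9 rose, none fell and 8 did not pass (median log2 change 2.18). Mmp3, the secreted protease stromelysin, had the highest lower bound of all genes with an ordinary symbol: it read 5.16 and 5.39 in 19-day culture, against -6.30 and -6.07 in P0 progenitors, where it was not above background, and was at least 750-fold higher (adjusted p = 0.00351). Its neighbours Mmp10 and Mmp13, a second stromelysin and a collagenase, were at least 112-fold and 62.1-fold higher (means of 2.52 and 1.68 in 19-day culture, against -6.37 and -6.43 in P0 progenitors; adjusted p = 0.0034 and 0.0166). At 8 days the arrays read -0.11 and -5.38 for Mmp3, 2.02 and -0.63 for Mmp10 and 1.45 and -3.83 for Mmp13, and the 2 arrays of each gene were more than 2 log2 units apart.

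Timp1, a broad inhibitor of such proteases, read 3.60 and 1.71 in 19-day culture, against -2.56 and -3.72 in P0 progenitors (log2 change 5.79 ± 0.84 SE, adjusted p = 0.00619), and Plau, the urokinase that activates plasminogen, 3.91 and 5.01 in 19-day culture, against -2.20 and -0.16 in P0 progenitors (log2 change 5.64 ± 0.65 SE, adjusted p = 0.00277). Mmp19, another metalloprotease, was at least 12.8-fold higher (means of -0.60 in 19-day culture and -6.43 in P0 progenitors, adjusted p = 0.0041). Mmp2, a gelatinase, and Timp2, an inhibitor, did not pass (log2 changes 1.48 and 1.27, adjusted p = 0.0515 and 0.215). Rises in the protease list numbered 8 without replicate 1 and 7 without replicate 2 of the culture, 7 without replicate 1 and 5 without replicate 2 of the P0 progenitors, and 4 with slide as a block. Mmp3, Mmp10, Mmp19 and Plau kept their calls in each of the 4 fits that left out 1 array, and the other 2 had adjusted p of up to 0.0927 (Mmp13). Mmp3, Mmp10 and Mmp13 passed with slide as a block, where the gap between their 8-day arrays enters the fitted change. In that fit the log2 changes of Mmp3 and Mmp13 were 16.72 and 13.40. They ran from 11.34 to 11.57 and from 7.12 to 9.10 in the fits that left out 1 array.

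The promoters of the 3 neighbouring proteases are shown because these genes moved together and because AP-1, a dimer of Fos and Jun proteins, is a well-known regulator of this protease family. Each run covers 250 bases before to 50 bases after the start in RefSeq on GRCm38.p6, 5′ to 3′ on the gene's strand, and capitals mark matches to the AP-1 letters TGANTCA, searched on both strands (a palindrome, so each match was counted once). The windows are chr9:7445572-7445871 for Mmp3, chr9:7502092-7502391 for Mmp10 and chr9:7272264-7272563 for Mmp13, all on the plus strand.
Mmp3: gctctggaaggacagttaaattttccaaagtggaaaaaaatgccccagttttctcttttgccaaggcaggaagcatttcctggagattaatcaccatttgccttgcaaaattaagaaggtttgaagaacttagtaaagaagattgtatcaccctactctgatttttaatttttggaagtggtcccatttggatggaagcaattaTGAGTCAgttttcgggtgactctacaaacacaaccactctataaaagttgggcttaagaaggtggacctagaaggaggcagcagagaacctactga
Mmp10: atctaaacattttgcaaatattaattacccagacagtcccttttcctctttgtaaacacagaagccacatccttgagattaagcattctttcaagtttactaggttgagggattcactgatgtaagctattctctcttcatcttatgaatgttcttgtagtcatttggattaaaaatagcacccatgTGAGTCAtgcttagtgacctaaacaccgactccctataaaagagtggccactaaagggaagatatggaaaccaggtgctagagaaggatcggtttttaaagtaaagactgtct
Mmp13: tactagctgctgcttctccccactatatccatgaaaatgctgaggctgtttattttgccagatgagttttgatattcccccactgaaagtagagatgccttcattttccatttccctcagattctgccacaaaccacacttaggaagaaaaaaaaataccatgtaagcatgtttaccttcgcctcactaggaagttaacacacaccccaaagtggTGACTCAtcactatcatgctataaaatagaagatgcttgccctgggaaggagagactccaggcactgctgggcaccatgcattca
Each holds 1 match, whose first base lies at -46 in Mmp3, -63 in Mmp10 and -35 in Mmp13 relative to the start. The same letters occur in 7.81% of the 32851 promoter windows of the table. Of the 6 members of the protease list that rose and have a window there, 3 had a match, and of the 4 others with a window none. A match is a sequence feature and no measurement of binding.

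Fos and Jun family members themselves changed unevenly. Of 15 immediate-early genes, 3 rose, 2 fell and 10 did not pass, where 5.73% of all genes tested rose and 6.94% fell. Fosl1 was at least 12.6-fold higher (means of -0.63 in 19-day culture and -5.62 in P0 progenitors, adjusted p = 0.0341), and Fosl2 read 6.68 and 6.11 in 19-day culture, against 2.17 and 3.04 in P0 progenitors (log2 change 3.79 ± 0.74 SE, adjusted p = 0.0172). Ier3, an early gene that limits cell death, rose by 6.53 on the log2 scale (adjusted p = 0.012). Jun and Jund fell by 2.24 and 1.50 (adjusted p = 0.00714 and 0.0185), and Fos did not pass (log2 change -0.11, adjusted p = 0.946). Without replicate 1 of the culture, 3 of the list fell and none rose, and without either P0 array 1 rose and none fell. No call named here held in each of the 4 fits that left out 1 array, and the 5 genes named here had adjusted p of up to 0.168 (Fosl1). Fosl1 and Jun passed with slide as a block. Ier3 was above background on a single P0 array.

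Genes of DNA replication and mitosis that passed were lower in culture. Of 17 DNA replication genes, 11 fell, none rose and 6 did not pass (median log2 change -1.27), and of 17 mitosis genes, 7 fell, none rose and 10 did not pass (median -1.17). Mcm7, a subunit of the replicative helicase, read 3.36 and 3.29 in 19-day culture, against 5.79 and 6.01 in P0 progenitors (log2 change -2.58 ± 0.16 SE, adjusted p = 0.000314), and all 6 helicase subunits Mcm2 to Mcm7 fell, by 0.93 (Mcm4) to 2.58 (Mcm7) on the log2 scale. Mki67, the proliferation marker, read 2.70 and 3.10 in 19-day culture, against 4.43 and 4.40 in P0 progenitors (log2 change -1.52 ± 0.27 SE, adjusted p = 0.0123). Bub1, a spindle checkpoint kinase, fell by 2.28 and Gins1, a helicase partner, by 2.90 (adjusted p = 0.00838 and 0.0303).

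Mki67, Pcna, the sliding clamp of DNA polymerase, and Mcm6 were still well above background on both 19-day arrays. Cdc6, which loads the helicase, fell by 2.05 and Ccnb1, a mitotic cyclin, by 1.51 on the log2 scale (adjusted p = 0.00548 and 0.0282). Ccna2, the cyclin of S and G2 phase, had a log2 change of -1.83 and did not pass (adjusted p = 0.0851). Falls in the replication list numbered 5 without replicate 1 and 10 without replicate 2 of the culture, 4 without replicate 1 and 4 without replicate 2 of the P0 progenitors, and 2 with slide as a block. In the mitosis list they numbered 1 without replicate 1 and 7 without replicate 2 of the culture, 0 without replicate 1 and 0 without replicate 2 of the P0 progenitors, and 0 with slide as a block. Mcm4, Mcm7, Cdc6 and Mcm6 kept their calls in each of the 4 fits that left out 1 array. Mki67, Pcna, Bub1, Gins1 and Ccnb1 did not, and Mcm2 lost its call in all 4. Mcm3 and Mcm5 were not followed in these fits. Mcm4 and Mcm7 also passed with slide as a block.

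Several inhibitors of the division cycle rose. Of 19 cyclin-dependent kinase inhibitors and p53 targets, 8 rose, none fell and 11 did not pass (median log2 change 1.78). Cdkn2a, the locus of the p16 and p19Arf proteins that restrain division in long culture, read 2.38 and 1.86 in 19-day culture, against -4.51 and -4.02 in P0 progenitors, and it was at least 79.7-fold higher (adjusted p = 0.000725). Its neighbour Cdkn2b, the p15 gene, read 2.04 and 2.44 in 19-day culture, against -6.58 and -6.35 in P0 progenitors, and it was at least 91.9-fold higher (adjusted p = 0.00415). Neither was well above background on a P0 array, and at 8 days Cdkn2a read -2.58 and -3.70 and Cdkn2b -3.50 and -2.15, more than 3 log2 units below 19-day culture. Both probes of each gene were higher.

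Among the p53 targets, Ccng1, a cyclin-like protein, rose by 3.24, Zmat3, an RNA-binding protein, by 2.72 and Trp53inp1, a stress-induced nuclear protein, by 1.82 on the log2 scale (adjusted p = 0.0115, 0.0147 and 0.00403). Cdkn1a, the p21 gene, read 1.86 and 0.94 in 19-day culture, against -0.66 and -2.38 in P0 progenitors, and it did not pass (log2 change 2.92 ± 0.99 SE, adjusted p = 0.0994). It passed under 2 of 15 alternatives (adjusted p between 0.0099 and 0.608 over them). Cdkn2c, the p18 gene, rose by 2.72 (adjusted p = 0.0189). Rises in the inhibitor list numbered 5 without replicate 1 and 7 without replicate 2 of the culture, 3 without replicate 1 and 7 without replicate 2 of the P0 progenitors, and 3 with slide as a block. Cdkn2a, Cdkn2b and Trp53inp1 kept their calls in each of the 4 fits that left out 1 array, and the other 3 had adjusted p of up to 0.0844 (Zmat3). Cdkn2a and Trp53inp1 also passed with slide as a block.

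**Figure D4:**
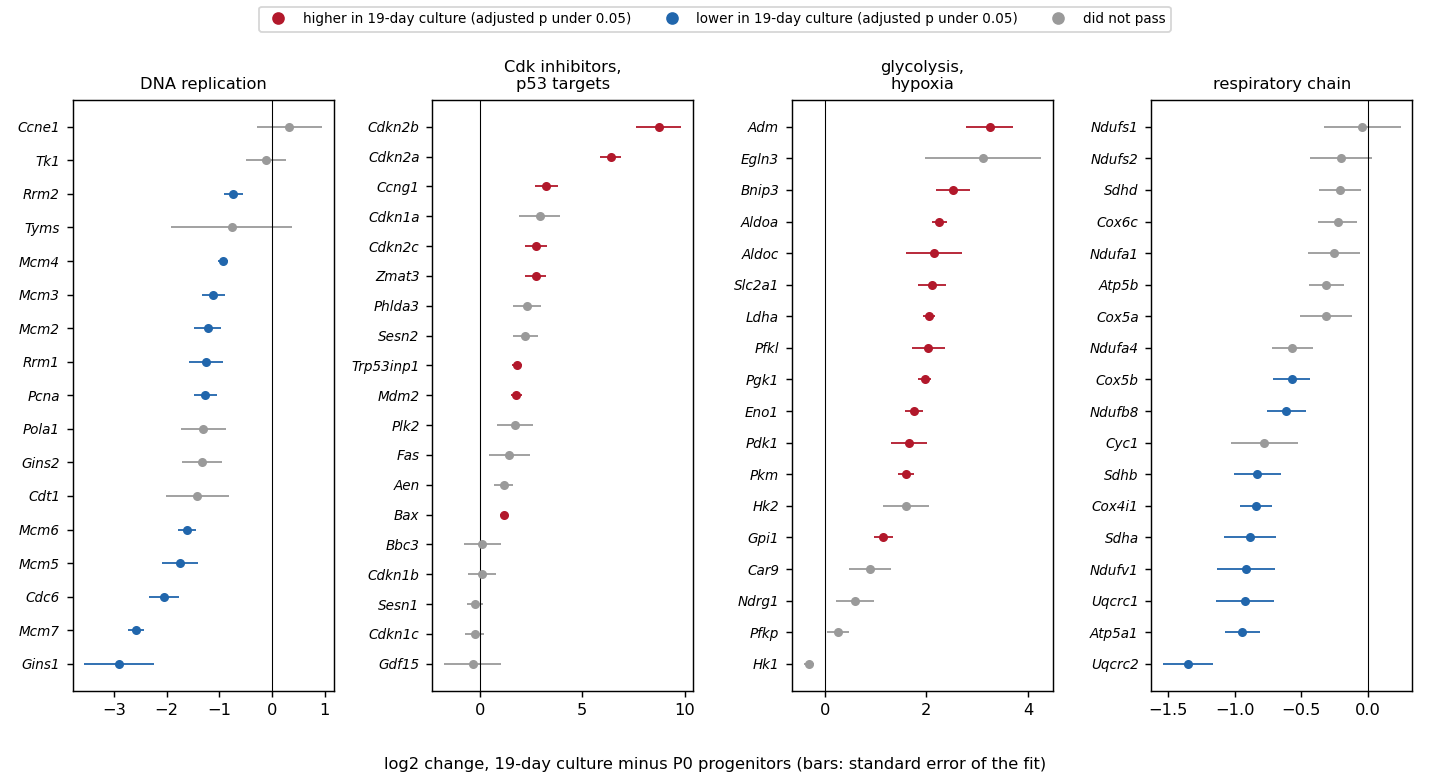
Fitted log2 change with its standard error, 19-day culture minus P0 progenitors, for the measured members of 4 gene lists, red and blue where the gene passed (higher and lower in culture) and grey where it did not. Replication and respiratory chain genes that passed lie left of 0, and cycle inhibitors and glycolysis genes that passed lie right of it. Cdkn2a and Cdkn2b were not above background at P0, so their fitted values are no measured folds.

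Cytokine genes rose in several lists. Of 12 genes of the LIF, interleukin-6 and STAT3 axis, a pathway in which cytokines act through the shared receptor chain gp130, 8 rose, none fell and 4 did not pass (median log2 change 3.09, and 2.60 with bounded genes at their bound). Osmr, the oncostatin M receptor, read 4.99 and 4.17 in 19-day culture, against -2.61 and -6.32 in P0 progenitors (log2 change 9.04 ± 1.14 SE, adjusted p = 0.00389). Stat3, the transcription factor of the pathway, read 6.0 and 6.02 in 19-day culture, against 2.51 and 2.55 in P0 progenitors (log2 change 3.48 ± 0.28 SE, adjusted p = 0.000664). Il6st, which encodes gp130, rose by 2.70 on the log2 scale (adjusted p = 0.00482), and Il6ra, the interleukin-6 receptor, was at least 9.83-fold higher (means of -0.98 in 19-day culture and -4.87 in P0 progenitors, adjusted p = 0.0153).

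The ligand Lif was at least 4-fold higher (means of -2.28 in 19-day culture and -6.10 in P0 progenitors, adjusted p = 0.0181). Socs3, the feedback inhibitor that the pathway induces, rose by 2.50, and Cebpb, a factor of the acute-phase response, by 4.0 (adjusted p = 0.00882 and 0.00711). Cebpd, a relative of Cebpb, did not pass, with a log2 change of 5.24 (adjusted p = 0.0779). It was above background on a single P0 array and passed under 2 of 14 alternatives (adjusted p between 0.0177 and 0.319 over them). At 8 days Stat3 read 5.62 and 4.89 and Cebpb 3.86 and 2.45. Rises in the cytokine axis list numbered 4 without replicate 1 and 7 without replicate 2 of the culture, 5 without replicate 1 and 3 without replicate 2 of the P0 progenitors, and 3 with slide as a block. Osmr, Stat3 and Il6st kept their calls in each of the 4 fits that left out 1 array, and the other 4 had adjusted p of up to 0.107 (Lif). Stat3, Il6st and Cebpb passed with slide as a block. Osmr was above background on a single P0 array.

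Of 14 chemokines and cytokines, 6 rose, none fell and 8 did not pass (median log2 change 2.37). Cxcl5, a neutrophil-attracting chemokine, read 7.65 and 3.78 in 19-day culture, against -4.05 and -5.68 in P0 progenitors (log2 change 10.58 ± 1.64 SE, adjusted p = 0.00778), and Cxcl1, another, 6.31 and 2.38 in 19-day culture, against -2.95 and -4.36 in P0 progenitors (log2 change 8.0 ± 1.67 SE, adjusted p = 0.0216). The 2 culture arrays differed from each other by more than 3 log2 units in both genes, yet both lay above the P0 arrays. Ccl2, a monocyte attractant, rose by 4.54, Csf1, the macrophage growth factor, by 4.45, Il33, an alarmin, by 2.50 and Cx3cl1, a membrane-bound chemokine, by 2.05 on the log2 scale (adjusted p = 0.0149, 0.0393, 0.0136 and 0.0322). Cxcl12, a stromal chemokine, had a log2 change of -0.60 and did not pass (adjusted p = 0.124). Rises in the chemokine list numbered 4 without replicate 1 and 5 without replicate 2 of the culture, 1 without replicate 1 and 0 without replicate 2 of the P0 progenitors, and 3 with slide as a block. No call named here held in each of the 4 fits that left out 1 array, and the 6 genes named here had adjusted p of up to 0.184 (Csf1). Cxcl5, Cxcl1 and Csf1 passed with slide as a block. Cxcl5 and Cxcl1 were above background on a single P0 array.

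The interferon list had a median log2 change of 3.45 (2.93 with genes below background on 1 side at their bound), with 7 of 16 genes higher, none lower and 9 that did not pass. Isg15, a ubiquitin-like protein that interferon induces, read 2.91 and 5.39 in 19-day culture, against -1.26 and -1.22 in P0 progenitors (log2 change 5.39 ± 0.98 SE, adjusted p = 0.0135). Ifitm3, an antiviral membrane protein, read 7.72 and 8.28 in 19-day culture, against 2.23 and 2.35 in P0 progenitors (log2 change 5.71 ± 0.66 SE, adjusted p = 0.00274), and Psmb8, a subunit of the immunoproteasome, 2.39 and 3.25 in 19-day culture, against -4.44 and -3.48 in P0 progenitors (log2 change 6.78 ± 0.78 SE, adjusted p = 0.00273). Ifit1 was at least 17-fold higher (means of -0.19 in 19-day culture and -6.55 in P0 progenitors, adjusted p = 0.0241). B2m, the light chain of class I antigen presentation, rose by 3.62 and Irf7, a factor that amplifies interferon, by 3.54 on the log2 scale (adjusted p = 0.00706 and 0.0364). Ifit3 had a log2 change of 5.10 and did not pass (adjusted p = 0.134).

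The mean scaled log2 signal of the interferon list differed between the 2 culture arrays, at -0.13 and 2.49, against -2.30 and -2.30 in P0 progenitors. Replicate 2 of the culture was the higher one. Rises in the interferon list numbered 12 without replicate 1 and 4 without replicate 2 of the culture, 3 without replicate 1 and 4 without replicate 2 of the P0 progenitors, and 4 with slide as a block. Ifitm3 and Psmb8 kept their calls in each of the 4 fits that left out 1 array, and the other 4 had adjusted p of up to 0.16 (Irf7). Isg15, Ifitm3, Psmb8 and Ifit1 passed with slide as a block. Psmb8 was above background on a single P0 array.

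Promoters of a chemokine and of 2 interferon-induced genes are shown as examples of genes that rose and whose response elements are well known. On the log2 scale Cxcl5 rose more than Cxcl1, and Psmb8 and Ifitm3 rose more than Isg15. Psmb8, whose window held no match, is not shown, and neither is Cxcl5, for which no match in a window was found. The promoters shown are those of Cxcl1, Isg15 and Ifit1. They are given as above, from RefSeq on GRCm38.p6, with capitals for matches on either strand to the NF-kB letters (GGG, 2 free bases, TTTCC) in Cxcl1 (chr5:90890995-90891294, plus strand) and to those of the interferon-stimulated response element (GAAA, 2 free bases, GAAA) in Isg15 (chr4:156200769-156201068, minus strand) and Ifit1 (chr19:34640639-34640938, plus strand). Neighbouring matches in Isg15 overlap and merge into 1 run of capitals.
Cxcl1: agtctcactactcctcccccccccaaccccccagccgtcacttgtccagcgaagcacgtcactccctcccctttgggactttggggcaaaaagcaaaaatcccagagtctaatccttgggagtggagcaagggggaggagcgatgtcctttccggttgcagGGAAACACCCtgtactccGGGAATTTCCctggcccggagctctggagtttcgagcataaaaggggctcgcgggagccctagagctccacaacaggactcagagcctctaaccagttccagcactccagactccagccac
Isg15: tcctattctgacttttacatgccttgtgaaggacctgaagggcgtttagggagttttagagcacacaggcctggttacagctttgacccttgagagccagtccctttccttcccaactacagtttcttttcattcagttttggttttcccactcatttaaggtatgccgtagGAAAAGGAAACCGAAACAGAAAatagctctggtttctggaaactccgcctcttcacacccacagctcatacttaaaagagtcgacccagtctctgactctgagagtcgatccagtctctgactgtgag
Ifit1: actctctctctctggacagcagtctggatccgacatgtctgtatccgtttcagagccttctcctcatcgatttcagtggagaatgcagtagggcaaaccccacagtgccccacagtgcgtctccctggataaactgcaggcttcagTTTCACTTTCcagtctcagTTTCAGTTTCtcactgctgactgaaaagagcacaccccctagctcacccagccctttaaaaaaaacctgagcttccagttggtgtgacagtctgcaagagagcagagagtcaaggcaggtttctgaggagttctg
Cxcl1 holds 2 matches, Isg15 3 and Ifit1 2, none farther upstream than -104 relative to the start. The NF-kB letters occur in 1.63% and the interferon letters in 3.44% of all 32851 windows. Among members with a window, the NF-kB letters were found in 2 of the 4 chemokine and cytokine genes that rose and in 1 of the 5 others, and the interferon letters in 5 of the 7 interferon genes that rose and in 3 of the 6 others.

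Other signalling lists moved less, to be read beside the 5.73% of all genes tested that rose and the 6.94% that fell. Of 11 Notch genes 4 fell and none rose (median log2 change -0.75): Hey1, a target of the pathway, read 0.81 and 0.27 in 19-day culture, against 4.07 and 4.52 in P0 progenitors (log2 change -3.75 ± 0.29 SE, adjusted p = 0.00066), and Heyl was at least 48.7-fold lower (means of -6.71 in 19-day culture and 0.93 in P0 progenitors, adjusted p = 0.00516). The receptor Notch2 fell by 1.61 and the feedback gene Nrarp by 2.49 on the log2 scale (adjusted p = 0.00436 and 0.0196). Of 13 BMP and TGF-beta genes, 3 fell and 1 rose. The 3 were Id1, Id2 and Id4, inhibitors of differentiation induced by BMP, which fell by 1.47, 1.93 and 4.78 (adjusted p = 0.0227, 0.00389 and 0.0129).

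The one that rose, Inhba, encodes activin A and was at least 80.7-fold higher (means of 2.06 in 19-day culture and -6.52 in P0 progenitors, adjusted p = 0.00738). Of 13 feedback targets of FGF and ERK signalling, 2 rose and 2 fell: Dusp6, a phosphatase of ERK, and Spred1, an inhibitor of the pathway, rose by 1.83 and 1.19, while Etv4, an Ets factor, and Il17rd, a membrane inhibitor, fell by 2.39 and 2.65 (adjusted p = 0.000664, 0.0454, 0.0107 and 0.00662). Of 12 canonical Wnt targets 1 fell, the transcription factor gene Tcf7 (by 1.89, adjusted p = 0.0273), and 11 did not pass. That is near the 6.94% of all genes tested that fell. Of 13 genes of retinoic acid handling 3 fell and 1 rose (Rbp4, at least 6.02-fold, with means of -1.69 in 19-day culture and -6.44 in P0 progenitors, adjusted p = 0.0153). Aldh1a3, a synthase, fell by 3.44 and Crabp2, a carrier protein, by 0.96 (adjusted p = 0.0036 and 0.0322). Hey1, Heyl, Notch2, Id2, Dusp6 and Aldh1a3 kept their calls in each of the 4 fits that left out 1 array, and the other 10 had adjusted p of up to 0.194 (Spred1). Hey1, Notch2, Id2, Id4, Inhba, Dusp6 and Spred1 passed with slide as a block. Id4 was above background on a single culture array.

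Glycolysis and respiratory chain genes that passed differed in direction. Of 18 genes of glycolysis and hypoxia, 12 rose, none fell and 6 did not pass (median log2 change 1.86), and of 18 genes of the respiratory chain, 9 fell, none rose and 9 did not pass (median -0.59). Ldha, which makes lactate, read 7.17 and 7.24 in 19-day culture, against 5.16 and 5.15 in P0 progenitors (log2 change 2.05 ± 0.11 SE, adjusted p = 0.000213). Aldoa, a glycolytic aldolase, read 8.50 and 8.12 in 19-day culture, against 6.13 and 5.97 in P0 progenitors (log2 change 2.25 ± 0.15 SE, adjusted p = 0.00041), and Slc2a1, the glucose transporter GLUT1, 4.46 and 3.71 in 19-day culture, against 1.93 and 2.01 in P0 progenitors (log2 change 2.12 ± 0.28 SE, adjusted p = 0.00438). For Ldha the E11.5 arrays (7.21 and 7.19) and the 8-day arrays (7.33 and 7.14) were as high as 19-day culture, so P0 progenitors stood low among the 4 groups.

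Bnip3, a mitophagy receptor that hypoxia induces, rose by 2.52 and Adm, a hypoxia-induced peptide hormone, by 3.24 on the log2 scale (adjusted p = 0.00453 and 0.00613). Hk2, an inducible hexokinase, did not pass (log2 change 1.59, adjusted p = 0.0609). In the respiratory chain Uqcrc2, a core protein of complex III, fell by 1.35, Atp5a1, of the ATP synthase, by 0.94 and Cox4i1, of complex IV, by 0.84 on the log2 scale (adjusted p = 0.0056, 0.00548 and 0.00598). Rises in the glycolysis list numbered 10 without replicate 1 and 11 without replicate 2 of the culture, 9 without replicate 1 and 8 without replicate 2 of the P0 progenitors, and 9 with slide as a block. Falls in the respiratory list numbered 4 without replicate 1 and 3 without replicate 2 of the culture, 2 without replicate 1 and 3 without replicate 2 of the P0 progenitors, and 1 with slide as a block. Ldha, Aldoa, Slc2a1, Bnip3, Adm, Uqcrc2 and Atp5a1 kept their calls in each of the 4 fits that left out 1 array, and Cox4i1 had an adjusted p of up to 0.0548. Ldha, Aldoa, Bnip3, Adm and Uqcrc2 also passed with slide as a block.

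Genes of cholesterol synthesis rose in 11 of 19 cases, with none lower (median log2 change 1.16). Fdft1, the squalene synthase, read 3.89 and 4.28 in 19-day culture, against 2.36 and 1.97 in P0 progenitors (log2 change 1.92 ± 0.27 SE, adjusted p = 0.00592). Mvk, the mevalonate kinase, rose by 2.03 and Msmo1, a later oxygenase, by 1.80 on the log2 scale (adjusted p = 0.0319 and 0.01). Of 16 lysosomal genes 7 rose and none fell (median 1.11), among them Npc2, a cholesterol carrier, by 3.60, the protease Ctsb by 2.16 and Lamp2, a membrane protein, by 2.12 (adjusted p = 0.00369, 0.00438 and 0.00066). Ctsl, another protease, did not pass (log2 change 0.47, adjusted p = 0.265). Rises in the cholesterol list numbered 9 without replicate 1 and 8 without replicate 2 of the culture, 1 without replicate 1 and 6 without replicate 2 of the P0 progenitors, and 1 with slide as a block. In the lysosomal list they numbered 4 without replicate 1 and 5 without replicate 2 of the culture, 4 without replicate 1 and 4 without replicate 2 of the P0 progenitors, and 2 with slide as a block. Fdft1, Npc2, Ctsb and Lamp2 kept their calls in each of the 4 fits that left out 1 array, and the other 2 had adjusted p of up to 0.175 (Mvk). Lamp2 also passed with slide as a block.

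Stress genes that passed differed in direction between lists, where 5.73% of all genes tested rose and 6.94% fell. A single fall in a list of this size is near that share and says little. Of 10 metallothioneins and Nrf2 targets 5 rose and 1 fell, with 1 to 4 rises when 1 array was left out. Mt1, a metal-binding protein, read 6.54 and 6.25 in 19-day culture, against 1.58 and 1.69 in P0 progenitors (log2 change 4.76 ± 0.37 SE, adjusted p = 0.00066). Its relative Mt2 read 8.03 and 7.59 in 19-day culture, against 3.07 and 4.05 in P0 progenitors (log2 change 4.25 ± 0.66 SE, adjusted p = 0.00766). Hmox1, the haem oxygenase, rose by 3.53 on the log2 scale, while Gsta4, a glutathione transferase, fell by 2.57 (adjusted p = 0.00932 and 0.00631). Of 11 heat shock genes 3 fell and none rose, with the inducible Hspa1a at -1.23 and -3.01 in 19-day culture, against 3.32 and 2.85 in P0 progenitors (log2 change -5.20 ± 0.81 SE, adjusted p = 0.00791), although its near-identical copy can share this signal. The constitutive chaperones Hsp90ab1 and Hspa8 fell by 0.79 and 0.57 (adjusted p = 0.00144 and 0.02). Of 14 genes of amino acid and endoplasmic reticulum stress 4 rose and 1 fell, with 0 to 3 rises when 1 array was left out. Trib3, a pseudokinase that stress induces, rose by 4.26 and Xbp1, a factor of the unfolded protein response, by 2.57, and Phgdh, the first enzyme of serine synthesis, fell by 1.75 (adjusted p = 0.0439, 0.0102 and 0.00763). Mt1 and Hsp90ab1 kept their calls in each of the 4 fits that left out 1 array, and the other 8 had adjusted p of up to 0.178 (Trib3). Mt1, Mt2, Hmox1 and Hsp90ab1 passed with slide as a block.

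Calcium-binding and cytoskeletal genes held some of the largest changes. Of 13 S100 proteins and annexins 8 rose, 1 fell and 4 did not pass (median log2 change 1.27). Rises in this list numbered 6 without replicate 1 and 7 without replicate 2 of the culture, 5 without replicate 1 and 6 without replicate 2 of the P0 progenitors, and 4 with slide as a block. S100a6, a small calcium-binding protein of motile and dividing cells, read 8.43 and 8.54 in 19-day culture, against 1.22 and -0.87 in P0 progenitors (log2 change 8.31 ± 0.64 SE, adjusted p = 0.000651), the largest rise among genes with an ordinary symbol above background on all 4 arrays. Anxa1, a phospholipid-binding protein, was at least 384-fold higher (means of 4.31 in 19-day culture and -6.09 in P0 progenitors, adjusted p = 6.36e-05). Anxa2, another annexin, rose by 5.67, and S100a4 and S100a10, S100 proteins of mesenchyme and membrane, by 4.47 and 3.68 (adjusted p = 0.0032, 0.0095 and 0.00463). The one that fell was S100g, the calbindin of calcium-transporting tubules, at least 168-fold lower (means of -5.58 in 19-day culture and 2.71 in P0 progenitors, adjusted p = 0.00033).

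Targets of YAP and SRF, factors that respond to cell shape and tension, rose in 6 of 17 cases and fell in none (median log2 change 1.38). Ccn2, a matricellular YAP target, read 3.87 and 4.29 in 19-day culture, against 1.11 and -0.56 in P0 progenitors (log2 change 3.81 ± 0.93 SE, adjusted p = 0.0379), and Tagln, an actin-binding protein of smooth muscle, 5.72 and 4.04 in 19-day culture, against 2.17 and 1.73 in P0 progenitors (log2 change 2.93 ± 0.51 SE, adjusted p = 0.0115). Cnn2, a calponin, rose by 3.06 on the log2 scale (adjusted p = 0.00307). Srf itself had a log2 change of -0.09 and did not pass (adjusted p = 0.877). Rises in the YAP and SRF list numbered 3 without replicate 1 and 7 without replicate 2 of the culture, 3 without replicate 1 and 1 without replicate 2 of the P0 progenitors, and 2 with slide as a block. S100a6, Anxa1, S100g, Anxa2, S100a10 and Cnn2 kept their calls in each of the 4 fits that left out 1 array, and the other 3 had adjusted p of up to 0.198 (Ccn2). S100a6, Anxa1, S100g and Cnn2 also passed with slide as a block.

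Genes that mark developmental age did not share 1 direction, where 5.73% of all genes tested rose and 6.94% fell. Of 12 imprinted growth genes 3 rose, 3 fell and 6 did not pass; with 1 array left out, 1 to 2 rose and 1 to 4 fell. Peg10, a retrotransposon-derived gene of placenta and embryo, read 5.02 and 6.03 in 19-day culture, against -3.87 and -4.49 in P0 progenitors (log2 change 9.71 ± 0.36 SE, adjusted p = 6.36e-05). Both probes of Peg10 were higher, and its level was 2.41 and 2.31 in E11.5 progenitors and 4.61 and 4.21 in 8-day culture, so P0 progenitors were below all the other groups, P0 non-progenitors (1.43 and 1.48) included. H19, the non-coding RNA beside Igf2, fell by 1.58 on the log2 scale with its 7 probes in 1 direction (adjusted p = 0.0102), and Peg3, a zinc-finger gene, by 1.49 (adjusted p = 0.00924).

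Dlk1, a surface protein of immature cells, rose by 1.86 and Igf2r, which clears Igf2, by 1.26 (adjusted p = 0.035 and 0.0128). Of 9 genes of the Lin28 pathway and fetal RNA-binding proteins, which decline as embryos mature, 1 rose (Arid3a, by 1.90, adjusted p = 0.0325) and 8 did not pass. With 5.73% of all genes tested higher, 1 rise in so short a list says little. Hmga2, a chromatin protein of embryonic cells, read 2.70 and 2.77 in 19-day culture, against 2.14 and 1.82 in P0 progenitors, and it did not pass (log2 change 0.76, adjusted p = 0.0979), while E11.5 progenitors read 4.87 and 4.78. Peg10 kept its call in each of the 4 fits that left out 1 array, and the other 5 had adjusted p of up to 0.181 (Dlk1). Peg10, H19 and Peg3 passed with slide as a block. Peg10 was above background on a single P0 array.

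Beyond the lists, the genes with the largest changes that were above background on all 4 arrays included further secreted and surface proteins. Among the rises were Plac8 (7.16), the Golgi kinase-like gene Gask1b (6.67), Nupr1, a stress-induced nuclear protein (6.37), Cfhr2, of the complement factor H family (6.25), Nfib, a transcription factor whose 5 probes all rose (6.18), Fbln2, a fibulin of elastic matrix (6.12), and Cyp1b1, a cytochrome that aryl hydrocarbon receptor ligands induce (5.89). Adjusted p-values of these 7 genes lay between 0.000178 (Plac8) and 0.0127 (Fbln2). Cyp1b1 read 5.40 and 4.89 in 19-day culture, against -1.18 and -0.30 in P0 progenitors.

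Among the falls were Cd24a, a surface glycoprotein of progenitors and epithelia (-6.77), Fxyd6, a regulator of the sodium pump (-6.51), Wfdc2, a secreted epithelial protein (-6.39), Emid1 (-6.36), Rnase12 (-6.19), the secreted Ism1 (-5.69) and Scube3 (-7.22), of whose 3 probes 1 went the other way. Adjusted p-values of these 7 genes lay between 0.000144 (Rnase12) and 0.0122 (Ism1). Cd24a read -3.02 and 0.28 in 19-day culture, against 5.44 and 5.37 in P0 progenitors, and 8-day culture was still at 4.64 and 5.07. Fxyd6 read 1.02 and 2.30 in 19-day culture, against 8.30 and 8.03 in P0 progenitors, with 7.06 and 6.36 at 8 days. Both genes were thus lower at 19 than at 8 days.

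Genes measured on 1 side alone included Ifi202b, an interferon-inducible gene of a multigene family, at least 530-fold higher in 19-day culture (means of 4.77 in 19-day culture and -6.30 in P0 progenitors). Serpina3g and Serpina3f, protease inhibitors of a mouse-expanded family, were at least 339-fold and 252-fold higher (means of 4.13 and 3.79 in 19-day culture, against -5.60 and -5.15 in P0 progenitors), and probes of such families can share signal between copies. Ctla2b, Gda, a guanine deaminase, and Htra1, a secreted protease, were at least 312-fold, 175-fold and 142-fold higher (means of 4.01, 3.17 and 2.88 in 19-day culture, against -5.35, -5.58 and -5.23 in P0 progenitors). These 6 genes had adjusted p-values of 0.00791 (Ifi202b), 0.00974 (Serpina3g), 0.0195 (Serpina3f), 8e-04 (Ctla2b), 0.00484 (Gda) and 0.00041 (Htra1).

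On the other side Minar2, Rasef, Cdh22, a cadherin, and Clec10a, a lectin receptor, were at least 172-fold, 123-fold, 72.1-fold and 58.7-fold lower in 19-day culture. Their means were -6.81, -6.70, -6.72 and -6.79 in 19-day culture, against 2.75, 2.27, 1.49 and 1.20 in P0 progenitors (adjusted p = 0.00229, 0.000311, 0.00286 and 0.00144). Rasef was still at 2.93 and 3.39 in 8-day culture. Plac8, Gask1b, Nupr1, Cfhr2, Nfib, Cyp1b1, Cd24a, Fxyd6, Wfdc2, Emid1, Rnase12, Scube3, Ctla2b, Gda, Htra1, Minar2, Rasef, Cdh22 and Clec10a kept their calls in each of the 4 fits that left out 1 array, and the other 5 had adjusted p of up to 0.119 (Serpina3f). Plac8, Gask1b, Cfhr2, Nfib, Cyp1b1, Fxyd6, Wfdc2, Emid1, Rnase12, Ism1, Scube3, Serpina3g, Serpina3f, Ctla2b, Gda, Htra1, Rasef, Cdh22 and Clec10a passed with slide as a block.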

How the data were processed

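Six2-GFP cells were profiled on 10 Agilent 1-colour arrays, of which 4 carry the comparison. The values used are the deposited intensity of each spot, the processed signal that Agilent Feature Extraction 11.5.1.1 wrote, per the file headers. The file of replicate 2 of the P0 progenitors had been saved again with values of 3 significant digits and 62 gene names turned into dates, so its genes were named by probe. Its file name and that of its partner give another stage name than the labels, and the labels were followed.

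From these values, control and outlier spots were left out, the log2 intensity minus each array's 75th percentile was taken, and spots of a probe were averaged. The brightest probe on average stood for its gene, and genes were tested where both arrays of at least 1 of the 5 groups had a probe well above background. limma 3.58.1 in R 4.3.3 fitted 1 mean per group over all 10 arrays, with an intensity trend and Benjamini-Hochberg adjustment over 26251 genes, tested on simulated data as well. An adjusted p under 0.05 passed. Where a gene was not above background on either array of 1 group, its fold is a lower bound from the lowest signal among probes above background, or the gene's own signal where that is higher. RefSeq named genes.

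Genes were named by a rule: the 12 largest rises and falls above background on all 4 arrays, the 8 highest and 8 lowest bounds, in each list up to 6 members that passed (by size) and up to 3 that did not (by level), and 11 core progenitor genes. Meox2, Bmp7, Cdh2, Vcan, Has2, Socs3, Cdkn1a and the range over the Mcm genes were added after their values were seen. Some members that the rule names are not reported here. The comparison, the rule and the 43 lists were chosen with earlier results of these data known. Alternatives were quantile normalization, normexp background correction (offset 50), 2 filters, the mean of probes, no trend, robust moderation, blocks for replicate number and slide, the 4 arrays alone, a threshold of 1 log2 unit, and each array left out.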

Additional observations from a re-analysis of the deposited data

How the results depend on the processing

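The 2 counts, 1503 higher and 1821 lower, moved by under 1.5 times under quantile normalization, normexp, both filters, the mean of probes, robust moderation and the 4 arrays alone. They were 368 and 357 with slide as a block, 303 and 269 when tested against at least 1 log2 unit, and between 448 and 915 and between 492 and 1394 when 1 array was left out; without the intensity trend 1267 were higher and 1176 lower. With the replicate number as a block, 1285 were higher and 1690 lower. The deviations of same-numbered arrays of the 2 groups correlated at 0.0182 over the genes tested, and the labels name nothing that they share beyond the number. Calls reversed in 7 cases with normexp and in 39 with the mean of probes, and in none with quantile normalization or slide as a block. The other settings keep the difference of group means or leave out 1 array of groups that do not overlap. They could thus hardly reverse a call. The median of all genes moved to -0.07 with normexp and -0.04 with slide as a block, against 0.11, so changes are relative to that median.

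Of the named genes 198 passed, 100 of them in all 4 fits without 1 array, 98 with slide as a block and 64 under every alternative. The passing gene Elavl4 reversed with the mean of its probes (-1.53). Of the 26 that did not pass, 12 passed in the same direction under at least 1 alternative: Mmp2 under 4 of them, Hk2 and Six2 under 3, Cdkn1a, Cebpd, Krt18 and Timp2 under 2 and Ccna2, Col4a1, Fbn1, Lhx1 and Rgs5 under 1. Genes that had not passed took the other sign, without passing, in these cases. With slide as a block they were Aldh1a2 (0.58), Fos (2.44), Hoxa11 (0.15), Hoxd11 (0.56) and Srf (0.10). Over the 4 fits without 1 array, values ran between -0.25 and 0.17 for Aldh1a2, -0.82 and 0.61 for Fos, -0.44 and 0.67 for Gas1, -0.64 and 0.79 for Ncam1 and -0.33 and 0.14 for Srf. With the mean of probes Cxcl12 took 0.12 and with quantile normalization Eya1 took 0.092. The causes were not tested. With 2 arrays a group and the 2 groups on different slides, small changes and changes near background could not be resolved.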

Other observations

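By class of RNA, 1062 of 16139 protein-coding genes with a RefSeq symbol were higher and 1208 were lower in 19-day culture than in P0 progenitors (14.1% passed). Of 947 long non-coding RNA genes, 32 were higher and 27 lower (6.23% passed), and of 333 other RefSeq genes 17 were higher and 44 lower (18.3% passed). Of 8832 tested names without a RefSeq symbol, 392 were higher and 542 lower (10.6% passed).

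By root mean square difference over the genes tested, arrays of 19-day culture lay 1.36 log2 units from 8-day culture, 1.54 from P0 progenitors, 1.59 from P0 non-progenitors and 1.70 from E11.5 progenitors. Arrays of 8-day culture lay 1.31 from P0 progenitors. Of 1214 genes that passed and had more than 1 probe, 937 had all probes in 1 direction.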
